A study of Homo sapiens with 6 samples.

Results

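NF-kB is a family of transcription factors that switch on inflammatory, survival and feedback genes. The genes described here are 10 of its core components, chosen by name: the Rel/NF-kB subunits NFKB1, NFKB2, RELA, RELB and REL, the inhibitors NFKBIA, NFKBIB and NFKBIE, and the feedback genes TNFAIP3 and BIRC3. All 10 were found among the 20030 gene symbols of each library. In resting cells, IkB inhibitors hold the subunit dimers in the cytoplasm. Receptor signals activate the IKK kinases, which mark IkB for degradation, and the freed dimers enter the nucleus and induce genes that include their own inhibitors. For that reason the transcripts of NFKBIA, TNFAIP3 and BIRC3 are widely read as a sign of pathway activity.

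RNA was sequenced from 6 samples of human SKOV3 cells, an established ovarian carcinoma line. In 3 samples the cells were exposed for 24 h to recombinant human CCL20 (rhCCL20) dissolved in 5% trehalose, and in 3 samples to the vehicle, 5% trehalose, alone. CCL20 is a chemokine that acts through the G-protein-coupled receptor CCR6, and the comparison asks how the chemokine alters the transcriptome of this line. The labels give no dose, nor do they state that replicates are separate cultures; the p-values thus reflect the scatter of these samples, possibly technical.

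Each library gives 1 FPKM value per gene, a fragment count divided by transcript length and by library size. The summed FPKM lay between 302691 and 308488 in rhCCL20 libraries and between 301805 and 310080 in vehicle libraries. The number of fragments is unknown. Judged by how low values are spaced, relative depth, with vehicle replicate 1 set to 1, was 1.01 to 1.09 in rhCCL20 libraries and 0.947 to 1 in vehicle libraries, so it moved with the group, and its part in the results was not tested. The library of rhCCL20 replicate 3 stood apart, at 11.7 on a first principal component that held 38.8% of the variance, where the other 5 lay between -3.96 and -0.74. Estimates of the 10 genes are therefore also given without it. Keratins KRT8, KRT18 and KRT7 averaged 641, 588 and 112 FPKM over the 6 libraries, while the epithelial adhesion gene EPCAM and the lineage factors PAX8 and WT1 averaged 0.017, 0.174 and 0.014 FPKM. Of 12 leukocyte markers, 1 or 2 reached 1 FPKM in a library, and their summed level was 16.1 to 18.0 FPKM in rhCCL20 libraries and 13.1 to 19.0 FPKM in vehicle libraries, most of it CD68. Of 10 fibroblast markers, 3 to 5 reached 1 FPKM in a library, with LUM the most abundant at a mean of 4.44 FPKM. The markers with the smallest p of the epithelial, leukocyte and fibroblast lists were MUC1, LYZ and PDGFRB. Their log2 fold changes were 0.25, 0.87 and -0.096 (limma adjusted p = 0.937 for all 3). LYZ was at 3.58, 2.92 and 4.27 FPKM with rhCCL20 and at 5.24, 0.69 and 0.47 FPKM with vehicle, so its groups overlapped. The pan-leukocyte gene PTPRC stayed at or below 0.391 FPKM. In bulk RNA, fewer expressing cells and less RNA per cell cannot be told apart. The receptor transcript CCR6 was listed at 0.012 to 0.118 FPKM with rhCCL20 and at 0.038 to 0.129 FPKM with vehicle.

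The promoters of these genes are shown because NF-kB is known to act on several of its own components through kB sites in their promoters. RefSeq windows on GRCh38.p14, from 250 bases before to 50 bases after a transcription start, were at hand for 8 of the 10 genes, in 13 windows. They were searched on both strands for a kB motif of 10 letters, GGG, any 2 bases, then TTTCC. It was found in 8 windows of 7 genes, NFKB1, NFKB2, REL, NFKBIA, NFKBIB, TNFAIP3 and BIRC3. Over all 35116 windows the share with a match was 1.91%, and over all 27305 genes it was 2.33%. The broader kB consensus, most of whose matches here overlap those of this motif, was found in the same count of 7 genes, against 13.3% of all genes. A match is a description of the sequence and not evidence of binding.

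In GENCODE 29 on GRCh38 all 10 are protein-coding genes, spread over 7 chromosomes. The subunit genes lie at chr4:102501329-102617302 (NFKB1), chr10:102394110-102402529 (NFKB2), chr11:65653596-65663094 (RELA, minus strand), chr19:45001430-45038198 (RELB) and chr2:60881521-60931610 (REL). The inhibitor genes lie at chr14:35401511-35404749 (NFKBIA, minus strand), chr19:38899700-38908893 (NFKBIB) and chr6:44258166-44265788 (NFKBIE, minus strand), and the feedback genes at chr6:137867188-137883312 (TNFAIP3) and chr11:102317450-102339403 (BIRC3). Genes with no strand named are on the plus strand. Since strand use in counting is not given, TNFAIP3 may hold reads of the antisense gene AL357060.1, which covers 1.88% of its exon bases, and NFKBIB reads of SIRT2, which covers 1.72%.

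The 3 classical feedback promoters are printed whole, 5′ to 3′ on the strand of the gene, with the matches in capitals. NFKBIA lies on the minus strand of chromosome 14, and its window covers chr14:35404700-35404999. TNFAIP3 lies on the plus strand of chromosome 6, with a window at chr6:137867009-137867308. BIRC3 lies on the plus strand of chromosome 11, with a window at chr11:102317234-102317533.
NFKBIA: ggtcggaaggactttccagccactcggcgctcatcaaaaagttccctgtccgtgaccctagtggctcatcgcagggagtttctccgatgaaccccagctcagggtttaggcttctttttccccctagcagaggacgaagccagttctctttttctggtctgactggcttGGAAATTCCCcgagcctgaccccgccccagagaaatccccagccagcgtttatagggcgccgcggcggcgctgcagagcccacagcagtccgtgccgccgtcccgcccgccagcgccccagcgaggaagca
TNFAIP3: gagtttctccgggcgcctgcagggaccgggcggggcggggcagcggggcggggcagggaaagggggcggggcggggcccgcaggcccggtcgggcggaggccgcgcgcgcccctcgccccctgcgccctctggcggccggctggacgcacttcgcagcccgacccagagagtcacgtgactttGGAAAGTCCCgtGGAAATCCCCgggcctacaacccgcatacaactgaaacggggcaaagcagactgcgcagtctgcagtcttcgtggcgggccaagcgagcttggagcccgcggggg
BIRC3: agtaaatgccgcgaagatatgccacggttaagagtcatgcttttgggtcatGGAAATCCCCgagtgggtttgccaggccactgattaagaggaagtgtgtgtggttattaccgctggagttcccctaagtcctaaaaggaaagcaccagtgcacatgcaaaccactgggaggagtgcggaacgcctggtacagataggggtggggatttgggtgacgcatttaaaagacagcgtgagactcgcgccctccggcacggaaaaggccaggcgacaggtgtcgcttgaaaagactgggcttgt
In all 3 the motif lies in reverse on the strand shown. The NFKBIA match starts 81 bases before the transcription start, that of BIRC3 199 bases before it, and the TNFAIP3 promoter holds a pair, at 67 and 55 bases.

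The matches of the other genes are shown with 20 bases on each side, since they let the core sequences be compared. All stretches lie on the plus strand, at chr4:102501290-102501339 for NFKB1, chr2:60881508-60881557 for REL and chr19:38899921-38899970 for NFKBIB. Those of NFKB2 lie at chr10:102394480-102394529 and chr10:102395664-102395713, for 2 of its 3 starts. The start of NFKB2 furthest upstream, with a window at chr10:102393860-102394159, holds no match. In the labels below, upstream and downstream refer to the other 2 starts only.
NFKB1: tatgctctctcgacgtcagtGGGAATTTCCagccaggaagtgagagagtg
NFKB2, upstream start: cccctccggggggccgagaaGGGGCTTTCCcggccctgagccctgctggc
NFKB2, downstream start: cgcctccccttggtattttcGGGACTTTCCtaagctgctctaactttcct
REL: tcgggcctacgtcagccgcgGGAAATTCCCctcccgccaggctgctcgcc
NFKBIB: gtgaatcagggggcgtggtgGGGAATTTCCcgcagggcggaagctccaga
Read on the strand of the motif, NFKB1, REL, NFKBIA and NFKBIB carry the same core, GGGAATTTCC. TNFAIP3 and BIRC3 share GGGGATTTCC, and TNFAIP3 and NFKB2 share GGGACTTTCC. The matches start between 199 and 21 bases before a transcription start. Neither of the 2 RELA windows holds these letters.

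**Figure D1:**
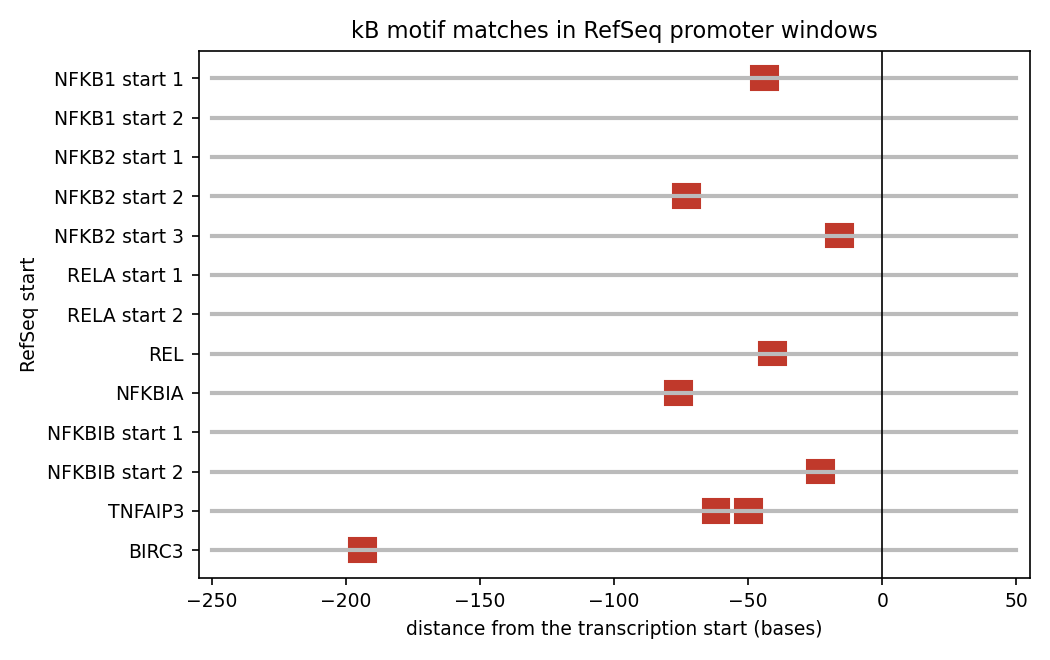
Position of the kB motif (red boxes, 10 bases long) in each RefSeq promoter window (grey lines) of the 8 genes with a window, in bases from the transcription start. Matches lie in 8 of 13 windows, all before the start, and the 2 RELA windows have none.

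All 10 transcripts were detected in every library, at levels that spanned from about 1 FPKM to about 40 FPKM. NFKBIA was the most abundant of the 10, with a mean of 38.5 FPKM over the 6 libraries, above 86.0% of the 10263 genes tested. BIRC3 and RELA followed at 23.8 and 23.5 FPKM, and BIRC3 was above RELA in 5 of 6 libraries with overlapping ranges, so their order is not resolved. NFKBIB averaged 12.3 FPKM, NFKB2 9.30 FPKM and NFKB1 8.40 FPKM. NFKB2 was above NFKB1 in 6 of 6 libraries, although their ranges overlapped. RELB averaged 3.71 FPKM, NFKBIE 1.89 FPKM and REL 1.5 FPKM, and the ranges of the last pair also overlapped, with NFKBIE above REL in 6 of 6 libraries. TNFAIP3 was the least abundant at 1.02 FPKM, above 0.877% of the tested genes. The order of the other neighbours held with ranges that did not overlap.

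**Figure D2:**
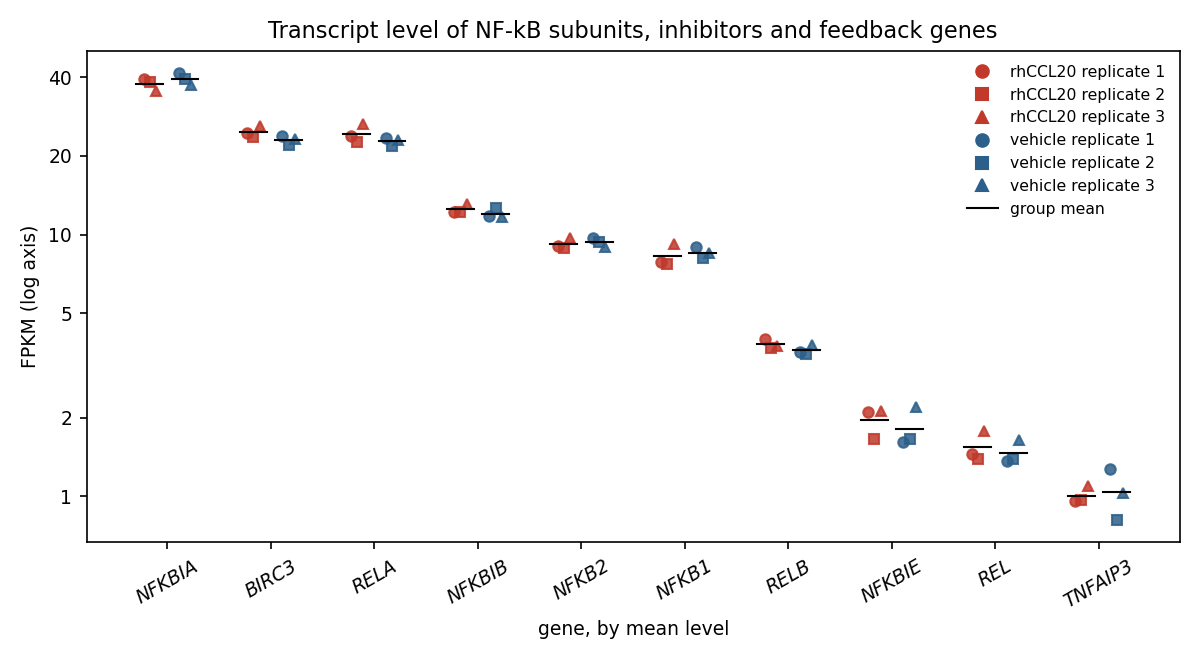
FPKM (log axis) of each gene in each library, ordered by mean level, with rhCCL20 libraries in red and vehicle libraries in blue; symbols mark the replicate and black bars the group means. The order runs from NFKBIA at 38.5 FPKM to TNFAIP3 at 1.02 FPKM, and for each gene the groups overlap.

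None of the 10 genes passed the test for a change with rhCCL20. With limma and Benjamini-Hochberg adjustment over 10263 genes, 0 of 10 rose and 0 fell, where 0.00974% of all tested genes passed. At an unadjusted p under 0.05 the count was 0 of 10, against 4.73% of all genes. It was 2 of 10, RELA and BIRC3, without rhCCL20 replicate 2, where the count over all genes was 669 of 10216. With the replicate number as a block it was 1 of 10, BIRC3, beside 548 of 10263 genes. The groups did not overlap for 0 of 10, against 11% of all genes. The median log2 fold change of the 10 was 0.048, beside 0.012 over all genes tested, and 6 of 10 lay above 0, beside 57.8% of all genes. The 95% interval lay within 1.5-fold in both directions for 10 of 10 genes, a share of 99.6% over all genes, and within 1.2-fold for 9 of 10, a share of 87.6% over all genes. The intervals refer to log2(FPKM + 1), a scale that understates changes of the low genes TNFAIP3, REL and NFKBIE. An exact test of 3 against 3 libraries cannot give a two-sided p below 0.1.

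RELA encodes p65, the subunit with the transactivation domain of the classical p50-p65 dimer. It was at 23.9, 22.6 and 26.4 FPKM in rhCCL20 replicates 1 to 3, against 23.3, 21.8 and 23.0 FPKM in vehicle replicates 1 to 3. The groups overlapped, and rhCCL20 replicate 3 was the highest of the 6. The means were 24.3 ± 1.9 FPKM with rhCCL20 and 22.7 ± 0.79 FPKM with vehicle (SD, n = 3 each). The log2 fold change was 0.09 (SE 0.057, 95% interval -0.038 to 0.22, limma adjusted p = 0.937). Over the libraries left out in turn it ran from 0.031 without rhCCL20 replicate 3 to 0.14 without rhCCL20 replicate 2 (limma adjusted p = 0.716 for the higher value).

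NFKB1 encodes p105, which is processed to p50, the partner of p65. It was at 7.86, 7.71 and 9.23 FPKM in rhCCL20 libraries, against 9.0, 8.12 and 8.48 FPKM in vehicle libraries. Again rhCCL20 replicate 3 was the highest of the 6, while the other 2 rhCCL20 libraries were the lowest. NFKB1 had an estimate of -0.043 on the log2 scale (95% interval -0.20 to 0.11, limma adjusted p = 0.958), and -0.12 without rhCCL20 replicate 3 (limma adjusted p = 0.813). NFKB2 encodes p100, an IkB-like precursor that is processed to p52 in the alternative pathway. It was at 9.09, 8.91 and 9.73 FPKM in rhCCL20 libraries and at 9.75, 9.37 and 8.98 FPKM in vehicle libraries, a range in which the groups largely coincided. Its estimate was -0.018 on the log2 scale (95% interval -0.13 to 0.10, limma adjusted p = 0.976), and -0.051 without rhCCL20 replicate 3.

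RELB encodes the partner of p52 in the alternative pathway. It was at 3.99, 3.68 and 3.76 FPKM with rhCCL20, against 3.55, 3.50 and 3.78 FPKM with vehicle. Vehicle replicate 3 lay within the rhCCL20 range, and the other vehicle libraries lay below it. RELB had a log2 fold change of 0.06 (95% interval -0.066 to 0.19, limma adjusted p = 0.937), and of 0.067 without rhCCL20 replicate 3. REL encodes c-Rel, a subunit best known from lymphocytes. It was at 1.45, 1.39 and 1.77 FPKM with rhCCL20, against 1.36, 1.39 and 1.64 FPKM with vehicle. Replicate 3 was the highest library of each group. REL had a log2 fold change of 0.041 (95% interval -0.13 to 0.21, limma adjusted p = 0.969), which turned to -0.023 without rhCCL20 replicate 3. In GENCODE annotation, 43.3% of the exon bases of REL are shared with AC010733.2, a non-coding gene on the same strand, so its value is uncertain to the extent that fragments were assigned to that gene.

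Among the subunits, RELA made up about 1 in 2 of the length-scaled transcripts. Its share of the summed FPKM of the 5 subunits was 51.6, 51.0 and 51.9% in rhCCL20 replicates 1 to 3 and 49.7, 49.4 and 50.1% in vehicle replicates 1 to 3. The means were 51.5% ± 0.45 with rhCCL20 and 49.7% ± 0.38 with vehicle (SD, n = 3 each). NFKB1 held 17, 17.4 and 18.1% in rhCCL20 replicates 1 to 3 and 19.1, 18.4 and 18.5% in vehicle replicates 1 to 3. The groups did not overlap for these 2 shares, higher for RELA and lower for NFKB1 with rhCCL20, and overlapped for the other 3 subunits. NFKB2 held 19.6% of the sum with rhCCL20 and 20.5% with vehicle. RELB held 8.11% and 7.91%, and REL 3.26% and 3.21%, in the same order of groups. The NFKB1 to RELA ratio was 0.340 ± 0.010 in rhCCL20 libraries and 0.375 ± 0.0091 in vehicle libraries (SD, n = 3 each), lower in every rhCCL20 library than in any vehicle library. It was examined after the values were seen. Of the 45 possible ratios among the 10 genes, 3 had groups that did not overlap, where 10.7% of the ratios of all pairs of tested genes did. The other two were NFKB1 to BIRC3, at 0.335 ± 0.019 with rhCCL20 and 0.371 ± 0.0057 with vehicle, and NFKB2 to BIRC3, at 0.374 ± 0.0040 and 0.407 ± 0.019 (SD, n = 3 each). A count of 3 in 45 is not above that background, and the shares of RELA and NFKB1 rest on the same values.

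NFKBIA encodes IkBalpha, the inhibitor that is degraded and resynthesised in the classical feedback loop. It was at 39.5, 38.4 and 35.3 FPKM in rhCCL20 libraries, against 41.4, 39.2 and 37.2 FPKM in vehicle libraries. The groups overlapped, and here rhCCL20 replicate 3 was the lowest of the 6. The log2 fold change was -0.057 (SE 0.053, 95% interval -0.18 to 0.062, limma adjusted p = 0.937), and -0.011 without rhCCL20 replicate 3. NFKBIB encodes IkBbeta. It was at 12.3, 12.3 and 13.1 FPKM with rhCCL20, against 11.7, 12.6 and 11.7 FPKM with vehicle, and vehicle replicate 2 lay within the rhCCL20 range. NFKBIB had a log2 fold change of 0.055 (95% interval -0.054 to 0.16, limma adjusted p = 0.937), and of 0.027 without rhCCL20 replicate 3.

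NFKBIE encodes IkBepsilon, an inhibitor known for late negative feedback. It was at 2.10, 1.66 and 2.12 FPKM with rhCCL20, against 1.61, 1.65 and 2.19 FPKM with vehicle. Its libraries fell into a low and a high level, and both levels held libraries of both groups. The estimate was 0.073 on the log2 scale (95% interval -0.14 to 0.29, limma adjusted p = 0.941), the widest interval among the 10. With a pseudocount of 0.1, which stretches low values, it was 0.11 (95% interval -0.20 to 0.42). It was 0.034 without rhCCL20 replicate 3 and ran from 0.020 without vehicle replicate 1 to 0.17 without vehicle replicate 3. Of the summed FPKM of the 3 inhibitors, NFKBIA held 72.2% ± 2.0 with rhCCL20 and 73.9% ± 1.5 with vehicle (SD, n = 3 each), and without rhCCL20 replicate 3 the first mean was 73.4%. The summed inhibitors stood at 1.11 ± 0.11 times the summed subunits with rhCCL20 and at 1.16 ± 0.048 times with vehicle (SD, n = 3 each). The lowest ratio was 0.991, in rhCCL20 replicate 3, and the groups overlapped. Without that library the rhCCL20 mean was 1.17, so the direction between the means turned.

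TNFAIP3 encodes A20, a ubiquitin-editing enzyme that shuts off signalling to IKK. It was at 0.963, 0.967 and 1.09 FPKM in rhCCL20 libraries, against 1.27, 0.815 and 1.03 FPKM in vehicle libraries. The rhCCL20 values lay inside the vehicle range. TNFAIP3 met the filter of 1 FPKM in 3 libraries with the minimum number, 1 of rhCCL20 and 2 of vehicle. The log2 fold change was -0.017 (SE 0.085, 95% interval -0.21 to 0.17, limma adjusted p = 0.988), and -0.023 (95% interval -0.37 to 0.32) with a pseudocount of 0.1. It was -0.098 without vehicle replicate 2. The gene no longer met the filter when rhCCL20 replicate 3 was left out. BIRC3 encodes cIAP2, a ubiquitin ligase and apoptosis inhibitor at TNF receptors. It was at 24.6, 23.6 and 25.9 FPKM in rhCCL20 libraries, against 23.9, 22 and 23.2 FPKM in vehicle libraries. Vehicle replicate 1 lay above rhCCL20 replicate 2, and the groups otherwise lay apart. BIRC3 had the smallest p of the 10, an unadjusted limma p of 0.0726, and its estimate on the log2 scale was 0.097 (SE 0.048, 95% interval -0.011 to 0.20, limma adjusted p = 0.937). It was 0.062 without rhCCL20 replicate 3 and 0.13 without rhCCL20 replicate 2 (limma adjusted p = 0.716 for the higher value). BIRC3 and TNFAIP3, both feedback genes, thus stood far apart in level, with means of 23.8 and 1.02 FPKM over the 6 libraries.

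**Figure D3:**
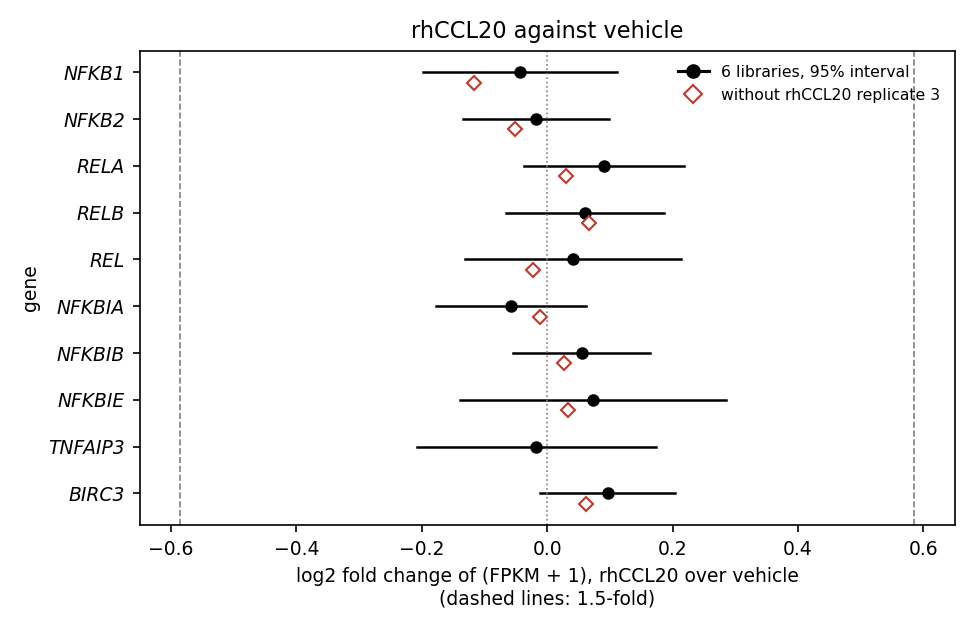
Log2 fold change of (FPKM + 1), rhCCL20 over vehicle, with 95% limma intervals (black), and the estimate without rhCCL20 replicate 3 (open diamonds; none for TNFAIP3, which then missed the filter). All 10 intervals include 0 and lie inside the dashed lines at 1.5-fold.

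The spread of the 10 genes between libraries separated the groups in none of them. The highest library exceeded the lowest by 1.09-fold for NFKB2 and by 1.56-fold for TNFAIP3, the extremes among the 10. The library of rhCCL20 replicate 3 held the highest value of the 6 for 5 genes and the lowest for NFKBIA. Vehicle replicate 1 held the highest for 3 genes, and vehicle replicate 2 the lowest for 4. Set against tested genes with a mean within 1.5-fold of their own, the SD over the 6 libraries on the log2(FPKM + 1) scale was above the median for 7 of the 10. It stood at percentile 84.4 for NFKBIE and 84.4 for RELA and at percentile 20.2 for RELB. NFKBIE had the largest such SD of the 10, 0.137. The 5 tested genes whose profile over the 6 libraries was nearest to that of NFKBIE, by root mean square difference of centred log2(FPKM + 1), were ETV5 at 0.020, ZSWIM4 at 0.032, HSPG2 at 0.033, SNX15 at 0.040 and AARS2 at 0.041, where the median over all tested genes was 0.136. These 5 were picked as the smallest distances over 6 libraries, so their place below the median is fixed by that choice. It is no sign of a link to NFKBIE. ETV5, an ETS family transcription factor, was at 2.47, 1.96 and 2.44 FPKM with rhCCL20 and at 1.89, 1.96 and 2.43 FPKM with vehicle.

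The cytokine transcripts IL1B and CXCL8, well-known NF-kB targets, differed between libraries far more than the 10 genes. They were picked because earlier results of these data had shown them to vary between libraries. The contrast was thus fixed by that choice and is no test of the 10 genes. IL1B was at 1.60, 6.90 and 1.34 FPKM in rhCCL20 libraries and at 9.67, 0.964 and 6.53 FPKM in vehicle libraries, and the highest library of CXCL8 stood 10.6-fold above its lowest. NFKBIA spanned 1.18-fold, BIRC3 1.18-fold and RELA 1.21-fold over the same libraries. In vehicle libraries TNFAIP3, BIRC3, RELA and NFKB1 had the order of IL1B, highest in replicate 1 and lowest in replicate 2. The others of the 10 did not, and an order of 3 values is weak evidence of a link. In rhCCL20 libraries TNFAIP3, BIRC3, RELA and NFKB1 did not follow IL1B, which was highest in replicate 2, while they were highest in replicate 3.

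**Figure D4:**
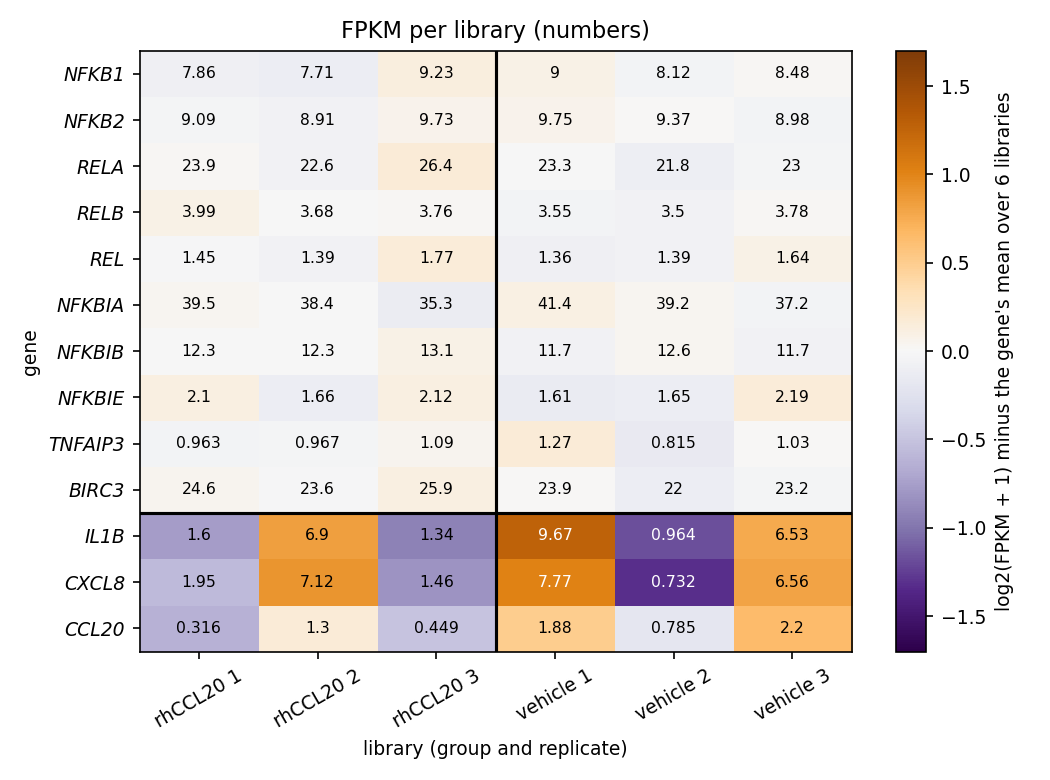
FPKM of the 10 genes, with IL1B, CXCL8 and CCL20 below the line, in each library (columns, rhCCL20 left and vehicle right). Colour gives log2(FPKM + 1) minus the mean of the gene over the 6 libraries; the 10 genes stay pale, while IL1B runs from 0.964 to 9.67 FPKM.

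Upstream of the subunits, the machinery of the pathway was present and 0 of its genes passed the test. All 24 listed genes of the IKK complex, its kinases and adaptors were tested; 0 rose and 0 fell, with a median log2 fold change of -0.0091. IRAK1, the kinase of interleukin 1 and Toll-like receptor signalling, was the most abundant, at 55.2 ± 8.1 FPKM with rhCCL20 and 51.1 ± 1.5 FPKM with vehicle (SD, n = 3 each), with rhCCL20 replicate 3 at 64.5 FPKM. TRAF2, an adaptor of TNF receptors, had the smallest p, with a log2 fold change of -0.11 (limma adjusted p = 0.937). Groups did not overlap for 2 of the 24, IKBKB and IRAK4, both lower with rhCCL20. Over all genes the share without overlap was 11% in either direction and 4.13% in that direction. IKBKB, the catalytic kinase of the classical pathway, was at 2.86, 2.87 and 2.92 FPKM with rhCCL20 and at 3.26, 3.24 and 2.96 FPKM with vehicle. IKBKB had a log2 fold change of -0.097 (95% interval -0.22 to 0.029, limma adjusted p = 0.937).

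Of 16 receptors that can feed NF-kB, 7 were tested and 9 fell below the filter. Again 0 rose and 0 fell, with a median of -0.0016. TNFRSF12A, the receptor of TWEAK, was the most abundant and had the smallest p, at 122 ± 4.7 FPKM with rhCCL20 and 119 ± 4.1 FPKM with vehicle (SD, n = 3 each; log2 fold change 0.032, limma adjusted p = 0.941). Of 14 other inhibitors and feedback genes 12 were tested, with 0 risen, 0 fallen and a median of 0.035. TAX1BP1, an adaptor of A20, was at 24.8, 25.8 and 25.2 FPKM with rhCCL20 and at 24.5, 24.2 and 23.6 FPKM with vehicle. It was the 1 gene of the 12 whose groups did not overlap, with a log2 fold change of 0.065 (limma adjusted p = 0.937). Over all genes the share without overlap was 11% in either direction and 6.88% for higher with rhCCL20.

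Downstream, targets inside or on the cell had narrow intervals, as did most genes tested. Of 18 such genes 14 were tested, 0 rose and 0 fell, with a median log2 fold change of -0.0034. The 95% interval lay within 1.5-fold for 14 of 14, a share of 99.6% over all genes. The most abundant, CD83, was at 158 ± 3.2 FPKM with rhCCL20 and 158 ± 2.5 FPKM with vehicle (SD, n = 3 each). SOD2, mitochondrial superoxide dismutase, had the smallest p and was at 26.4 ± 1.1 and 25.8 ± 0.22 FPKM in the same order of groups (SD, n = 3 each; log2 fold change 0.034, limma adjusted p = 0.940). Of 18 secreted targets 11 were tested, 0 rose and 0 fell, and the median was -0.12. CCL20, TNF, IL1A and CXCL2 met the filter with the minimum number, in rhCCL20 replicate 2 and vehicle replicates 1 and 3. CCL5 also met it with the minimum, in rhCCL20 replicates 2 and 3 and vehicle replicate 1. The direction of the median thus depends in part on which genes the filter let in. The 95% interval lay within 1.5-fold for 5 of the 11, beside the same 99.6% of all genes. IL1B, CXCL8 and CCL20 were known from earlier results of these data to vary between libraries. Their inclusion partly fixed this share and the next count, which are no test of the list. At an unadjusted p under 0.05 there were 2 of 11, CCL20 and LIF, against 4.73% of all genes. LIF, a cytokine of the interleukin 6 family, was the 1 gene of the 11 whose groups did not overlap. Over all genes that share was 11% in either direction and 4.13% for lower with rhCCL20. LIF was at 2.45, 2.18 and 2.22 FPKM with rhCCL20 and 2.70, 2.60 and 2.58 FPKM with vehicle (log2 fold change -0.14, limma adjusted p = 0.937). The list median followed single libraries, at 0.014 without vehicle replicate 1, where 6 genes were tested, 0.0011 without rhCCL20 replicate 3, where 10 were, -0.0020 without vehicle replicate 3, where 7 were, and -0.36 without vehicle replicate 2. CCL20 itself had the smallest p and an estimate of -0.64 on the log2 scale (95% interval -1.17 to -0.10, limma adjusted p = 0.937). Its level was near the filter and its groups overlapped. It was at 0.316, 1.30 and 0.449 FPKM with rhCCL20 and at 1.88, 0.785 and 2.20 FPKM with vehicle. By the mean over the 6 libraries IL1B was the most abundant of the 11. With rhCCL20, however, CSF1 averaged 4.53 FPKM and IL1B 3.28 FPKM, and with vehicle 4.37 and 5.72 FPKM. IL1B had a log2 fold change of -0.57 and an interval from -1.92 to 0.78 (limma adjusted p = 0.937).

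**Figure D5:**
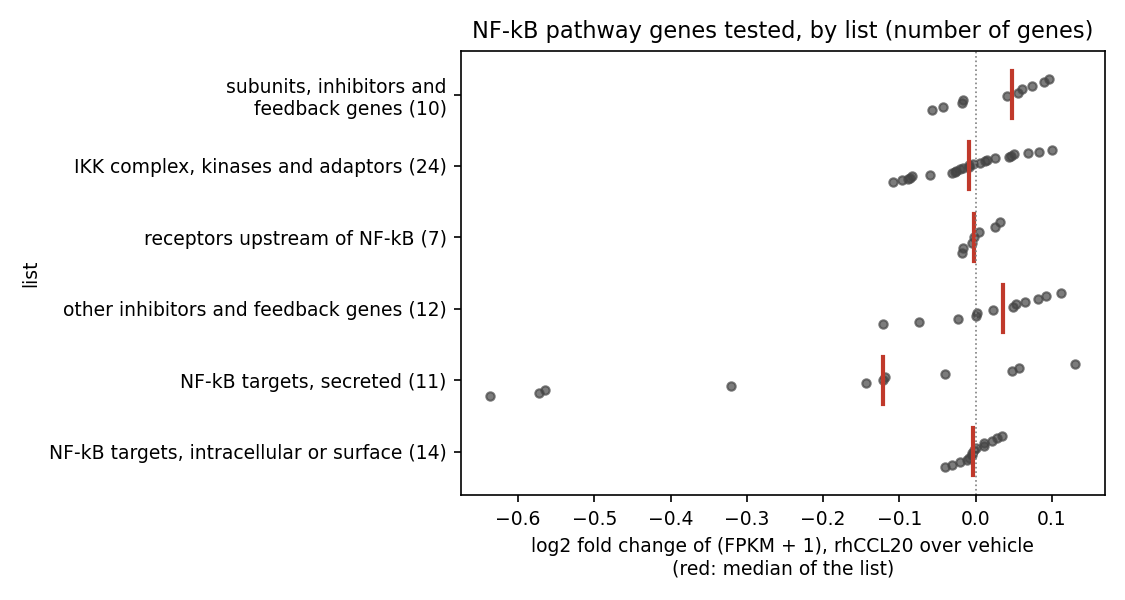
Log2 fold change of (FPKM + 1), rhCCL20 over vehicle, of each tested gene (points) of the NF-kB pathway by list, with the list median in red and the number of genes in brackets. The 10 subunit, inhibitor and feedback genes lie between -0.057 and 0.097, and the secreted targets reach down to -0.64.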

How the data were processed

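Total RNA of 6 SKOV3 samples was made into libraries with an Illumina TruSeq RNA kit after Trizol extraction, per the labels' protocols. Each deposited file gives FPKM by gene symbol for 1 library, unpooled, per the file headers. The build GRCh38 and the tools HISAT2, Cufflinks, HTSeq and Trimmomatic appear in the submitters' processing notes, with no role or order; for annotation, strand use and filters, not given in the sources used here, nothing is assumed, so reads of overlapping genes cannot be told apart. FPKM hides the fragment count, so no counting interval is given, and no 2 libraries were identical.

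The groups follow the titles. A gene entered the test with 1 FPKM or more in 3 or more libraries. The test was limma 3.58.1 in R 4.3.3 (eBayes with a trend, group as the only term) on log2(FPKM + 1), with Benjamini-Hochberg adjustment over all genes tested, a threshold of 0.05 and 95% intervals. The procedure was tested on simulated data with independent noise in each gene and without the filter. The changes planted there were far larger than the estimates of the 10 genes, so that test does not cover changes as small as theirs. The 10 genes and the other lists were chosen with earlier results of these data known. Named beside the 10 are the gene with the smallest p and the most abundant one of each list. The 5 profiles nearest to the most variable member are also named. IL1B, CXCL8 and CCL20 were added because earlier results of these data showed them to vary between libraries, and CCR6 as the receptor of CCL20. IKBKB, IRAK4, LIF, single markers of cell type and the ratios were named after their values were seen. Pseudocount, filter, normalization and eBayes options were varied, replicate number was tried as a block, and each library was left out in turn. Promoters are from RefSeq on GRCh38.p14. Exon overlaps are those of GENCODE 29 (GRCh38); the authors' annotation may differ.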

Additional observations from a re-analysis of the deposited data

How the results depend on the processing

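Of the 10 genes, 0 passed in any of the 15 alternatives. The count over all genes, 1 in limma, was 0 with no filter on low values (861 at an unadjusted p under 0.05) and 1 to 3 on leaving out single libraries, with 3 without vehicle replicate 1. For the 10 genes, 140 of 143 alternative log2 fold changes kept their direction and side of the threshold. The exceptions, both near 0, were NFKB2, at 0.0056 without rhCCL20 replicate 2 and 0.0090 without vehicle replicate 1 (-0.051 to 0.0090 over the left-out libraries), and REL, at -0.023 without rhCCL20 replicate 3 (-0.023 to 0.092). Beyond the left-out library itself, the cause was not tested. TNFAIP3 missed the filter without rhCCL20 replicate 3, vehicle replicate 1 or vehicle replicate 3, and with the filter at 5 FPKM 6 of the 10 were tested. Medians of the other lists without each library were added after seeing the data. That of the IKK, kinase and adaptor list lay between -0.022 and 0.021 and that of the other inhibitors between 0.0072 and 0.063. With the replicate number as a block 1 gene and 0 of the 10 passed, and BIRC3 had an adjusted p of 0.856 in limma. Deviations from the group means correlated at -0.10, 0.035 and 0.097 between libraries of equal number. Between libraries of unequal number the values ran from -0.12 to 0.13. With 3 libraries per group, these values cannot decide whether libraries were paired by number. With the depth unknown, genes near 1 FPKM, such as TNFAIP3, are read with least precision.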
